A study of Mus musculus with 4 samples.

Results

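The genes described here encode the protein arginine methyltransferases of the mouse and the partner proteins WDR77 (also MEP50) and pICln (gene Clns1a) that work with PRMT5. The list holds 10 genes, namely Prmt1, Prmt2, Prmt3, Carm1, Prmt5, Prmt6, Prmt7, Prmt9, Wdr77 and Clns1a. They were looked up by symbol in the GENCODE M21 annotation, and 9 of the 10 had a matching identifier among the 37718 gene entries of the count files. Prmt1 could not be matched by identifier and is not analysed here.

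Total RNA of germ cells was sequenced after removal of ribosomal RNA, in 2 samples of Tdrd6+/- and 2 of Tdrd6-/- mice aged 20 days post partum (dpp). The cells were isolated by magnetic sorting for human CD4 (hCD4), which was expressed under the endogenous Tdrd6 promoter, and the heterozygous controls also carried a disrupted Tdrd6 allele. Each sample was pooled from the testes of at least 4 mice. The study asked how loss of TDRD6, a tudor domain protein of the chromatoid body, affects splicing in primary spermatocytes. No wild-type sample was measured, and the labels do not say whether equally numbered samples shared a litter or a day.

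Arginine methyltransferases transfer methyl groups from S-adenosylmethionine to arginine side chains. Type I enzymes (PRMT1, PRMT2, PRMT3, CARM1, PRMT6) make asymmetric dimethylarginine, type II enzymes (PRMT5, PRMT9) make symmetric dimethylarginine, and the type III enzyme PRMT7 makes monomethylarginine only. PRMT5 works in a complex with WDR77, and pICln brings Sm proteins of the spliceosomal snRNPs to this complex before the SMN complex loads them onto snRNA, while PIWI proteins of the germ line are methylated by it too and are then bound by tudor domains.

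The libraries held 26454326 to 31388750 gene counts and 9603669 to 13937818 intron counts each, and intron counts made up 31.0% and 27.1% of all tallied fragments in Tdrd6+/- and 27.4% and 21.9% in Tdrd6-/-, with Tdrd6-/- sample 2 the lowest. Levels are given in CPM, counts scaled to the effective library size. Tdrd6 fell from 1269 and 1412 CPM to 11.4 and 12.5 CPM in Tdrd6-/- as labelled. The 6 markers of pachytene and diplotene spermatocytes, the cells sorted for, summed to 3700 to 3867 CPM per library. Of the markers of other testis cells, the 5 of Sertoli cells summed to 66.9 to 85.1 CPM and the 5 of spermatogonia and early meiosis to 19.6 to 28.1 CPM. The 4 round spermatid markers summed to 3.21 to 9.80 CPM, with Tnp1, Prm1 and Prm2 below 1 CPM in every library. The sums of the Sertoli cell, spermatogonium and spermatid lists were each higher in both Tdrd6-/- libraries than in both Tdrd6+/- libraries, and their part in the results was not tested. The Sertoli sum was mostly Clu (38.5 to 60.4 CPM), while Sox9 was lower in both Tdrd6-/- libraries and Wt1 overlapped, and the spermatid sum was mostly Acrv1 (2.94 to 9.39 CPM), which was called higher (edgeR adjusted p = 0.0565). In the list of spermatogonia and early meiosis, Uchl1, the largest member (6.17 to 11.3 CPM), and Zbtb16 overlapped between genotypes. Kit, Stra8 and Dmrt1 were higher in both Tdrd6-/- libraries, and 0 of the 5 were called. In sorted bulk RNA, fewer cells of a type and less RNA per cell cannot be told apart.

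Transcripts of the type III enzyme Prmt7 and the type II enzyme Prmt5 were the most abundant of the 7 listed family members measured. The 4 listed type I enzymes measured, which leave out Prmt1, were lower. Levels are given as CPM per kb of merged exon, with library sizes scaled by the trimmed mean of M values (TMM), because longer transcripts give more counts. Prmt7 (chr8:106210936-106252794, GRCm38, plus strand) reached 30.1 and 31.3 CPM per kb in Tdrd6+/- and 31.3 and 37.0 in Tdrd6-/-, that is 32.4 ± 3.12 (SD, n = 4). Prmt5 (chr14:54507187-54517525, minus strand) followed with 20.3 and 24.6 CPM per kb in Tdrd6+/- and 22.0 and 22.2 in Tdrd6-/-, or 22.3 ± 1.76 (SD, n = 4). Of the tested genes that have an exon length in M21, 89.1% lay below Prmt7 and 84.3% below Prmt5 on this scale. The second type II enzyme, Prmt9 (chr8:77549397-77581338), which methylates the splicing factor SF3B2, lay at 2.46 and 2.17 CPM per kb in Tdrd6+/- and at 2.27 and 2.38 in Tdrd6-/-, in the middle of the expressed genes (45.6% lower). Its 4 values overlapped between the genotypes, and so did those of Prmt5.

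Both cofactors were below Prmt5 per length. Clns1a, on chr7:97696634-97720796, had 11.7 and 13.1 CPM per kb in Tdrd6+/- and 13.9 and 15.9 in Tdrd6-/-, higher in both Tdrd6-/- samples than in both Tdrd6+/- samples. Wdr77 (chr3:105959369-105970037) shared its gene count with the neighbouring Ovgp1, which encodes an oviduct glycoprotein, because overlapping genes were joined before counting. The joined entry had 9.34 and 6.56 CPM per kb in Tdrd6+/- and 7.45 and 7.44 in Tdrd6-/-. The high and the low end were both Tdrd6+/- samples, and the Tdrd6-/- samples lay between them.

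Among the 4 listed type I enzymes measured, Prmt6 (chr3:110246109-110250998), a nuclear enzyme that methylates histone H3, was the highest with 6.19 and 5.01 CPM per kb in Tdrd6+/- and 4.62 and 4.89 in Tdrd6-/-. Carm1 (chr9:21546894-21592623), a coactivator of transcription, had 3.86 and 3.61 CPM per kb in Tdrd6+/- and 3.59 and 3.63 in Tdrd6-/-. Prmt2 (chr10:76207222-76237865) had 0.818 to 1.09 CPM per kb, its gene count being joined with that of the microRNA gene Mir678. Prmt3 (chr7:49778346-49858265), the cytosolic enzyme that methylates ribosomal protein S2, was lowest with 0.815 and 0.497 CPM per kb in Tdrd6+/- and 0.865 and 0.834 in Tdrd6-/-. Tdrd6+/- sample 2 was the lowest library for both Prmt2 and Prmt3, and 31.5% and 27.1% of the same genes lay below them. These are low counts, with 79 to 121 gene counts per library for Prmt2 and 83 to 164 for Prmt3.

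The order from Prmt7 through Prmt5, Clns1a, Wdr77 with Ovgp1, Prmt6, Carm1, Prmt9 and Prmt2 to Prmt3 held between each pair of neighbours in 4 of 4 samples. The closest neighbours were Prmt2 and Prmt3, at a log2 ratio of 0.44 ± 0.19 (SD, n = 4), followed by Prmt6 and Carm1 at 0.49 ± 0.14 and Prmt7 and Prmt5 at 0.54 ± 0.16. Genes were not tested against each other with 4 samples. Merged exons also hold segments that not every transcript contains.

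**Figure D1:**
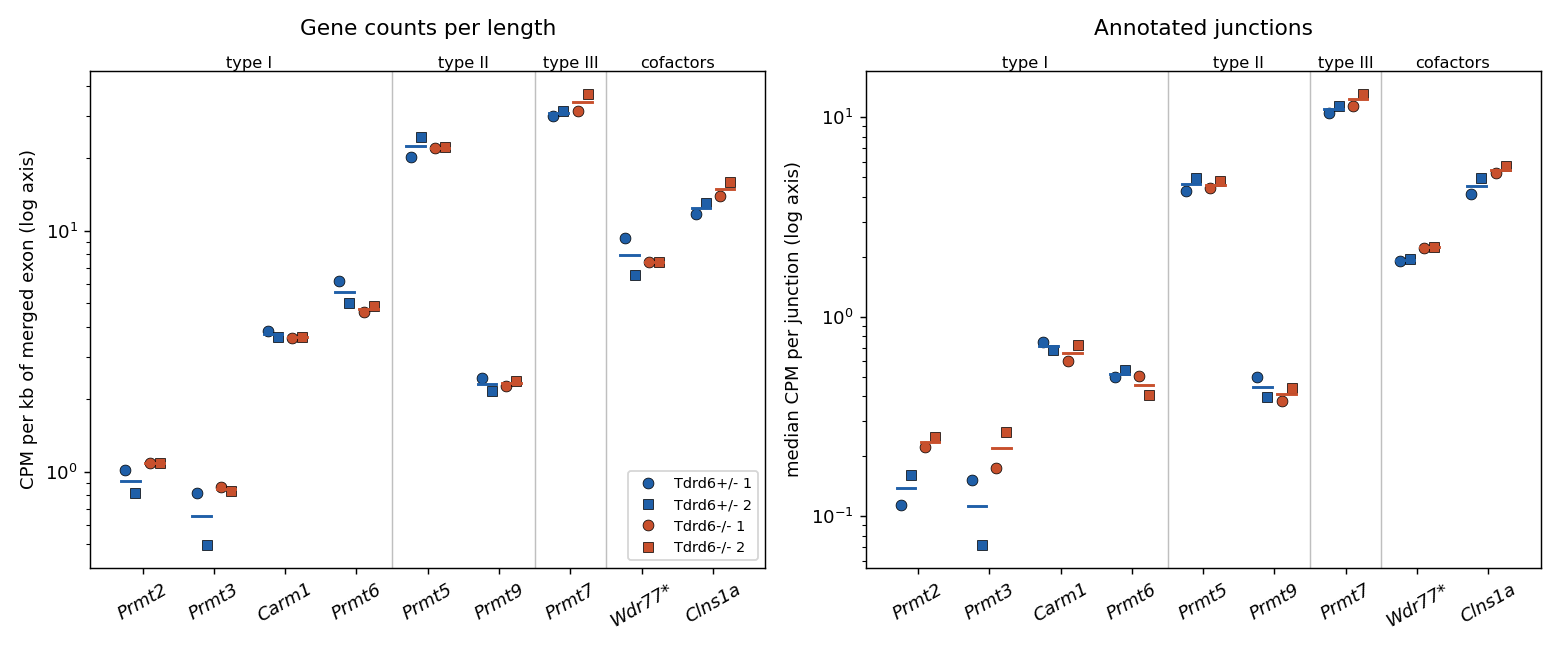
Levels of the 9 matched genes in each sample, as CPM per kb of merged exon (left, log axis) and as the median CPM of the gene's annotated junctions (right, log axis). Circles and squares are samples 1 and 2, short bars are genotype means, and Wdr77* is the entry joined with Ovgp1 on the left and the junctions numbered into Wdr77 on the right. Prmt7 sits highest in every sample on both scales, and Clns1a moves from below Prmt5 on the left to the height of Prmt5 on the right.

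A level that does not need a length was therefore read from the splice junctions, as the median CPM over a gene's annotated junctions with at least 10 counts in total. On that scale Prmt7 had 10.5 and 11.4 CPM per junction in Tdrd6+/- and 11.4 and 13.1 in Tdrd6-/-. Prmt5 had 4.30 and 4.97 against 4.41 and 4.80 CPM per junction. Clns1a had 4.14 and 4.94 against 5.25 and 5.67, so that it stood level with Prmt5, at a ratio of 1.08 ± 0.120 (SD, n = 4) compared with 0.614 ± 0.0786 per kb. The ratio of Prmt7 to both type II enzymes together was 1.32 ± 0.139 per kb and 2.30 ± 0.176 by junctions. Carm1, at 0.687 ± 0.0626 CPM per junction, stood above Prmt6, at 0.487 ± 0.0567 for its single junction, the reverse of their order per kb.

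The junctions of the joined entry were also divided between Wdr77 and Ovgp1 by their order. The 11 lowest-numbered junctions of the joined entry were taken as those of Wdr77, because M21 annotates 11 there and numbers follow the chromosome. The 24 junctions of the entry did not match M21 in number, so they could not be placed and this division is an assumption. They summed to 530 and 510 counts in Tdrd6+/- and 693 and 720 in Tdrd6-/-, or 19.3 ± 1.37 and 22.2 ± 0.411 CPM (SD, n = 2), and made up 80.1% of the junction counts of the entry. Both Tdrd6-/- samples were above both Tdrd6+/- samples, at a log2 ratio of genotype means of 0.20, whereas the joined gene count gave -0.09. The other 13 junctions, assigned to Ovgp1, had 5.27 and 4.13 CPM in Tdrd6+/- and 5.31 and 5.94 in Tdrd6-/-, at a log2 ratio of 0.26. Both sets of junctions thus had the opposite sign to the joined count. The exact permutation test gave p = 0.333 (two-sided) for each gene, which is the smallest p that 2 samples against 2 can give. Relative to Prmt5, Wdr77 stood at 0.451 ± 0.0472 by junctions and at 0.350 ± 0.0802 (SD, n = 4) by the joined count per kb.

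Ratios between the types were compared between genotypes by the same exact permutation test. The summed level of the 4 type I enzymes over that of the type II enzymes was 0.521 and 0.371 in Tdrd6+/- and 0.419 and 0.425 in Tdrd6-/- (exact permutation p = 1). Prmt7 over the type II enzymes gave 1.32 and 1.17 against 1.29 and 1.51 (exact permutation p = 0.667). Clns1a over Prmt5 gave 0.577 and 0.533 against 0.633 and 0.715, the only one of 5 ratios whose genotypes did not overlap (exact permutation p = 0.333, the smallest possible). Wdr77 with Ovgp1 over Prmt5 (0.267 to 0.460) and Prmt5 over Prmt9 (8.25 to 11.3) both had their extremes in the Tdrd6+/- samples (exact permutation p = 1 for each). Since Prmt1, and the type I enzyme Prmt8 that is not on the list, are missing from it, the type I sum is a lower bound.

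The next question was whether loss of TDRD6 changed the amount of these transcripts, and no such change passed the test. In the quasi-likelihood test of edgeR, with p-values adjusted after Benjamini and Hochberg over 16555 genes, 0 of the 9 genes passed a false discovery rate of 0.1, against 4.8% of all genes tested (169 higher and 625 lower in Tdrd6-/-). An unadjusted p under 0.05 was found for 0 of the 9, against 2316 of the 16555 genes. DESeq2's Wald test also called 0 of the 9. The log2 fold changes of Tdrd6-/- over Tdrd6+/- ran from -0.24 to 0.37 with a median of 0.01, which was also the median of all genes, and adjusted p ran from 0.454 to 0.994.

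Clns1a had the smallest adjusted p, with a log2 fold change of 0.26 ± 0.15 (SE) and an edgeR adjusted p of 0.454. Prmt5 was at -0.02 ± 0.14 (95% interval -0.29 to 0.25). Prmt7 was at 0.16 ± 0.13, and its value in Tdrd6-/- sample 2 (227 CPM) stood above the other 3 samples (184 to 192 CPM). Prmt9 was at 0.01 ± 0.19 and Carm1 at -0.05 ± 0.18. Prmt6 was at -0.24 ± 0.18 with both Tdrd6-/- samples under both Tdrd6+/- samples. The least precise values were those of the low genes Prmt2 (0.25 ± 0.27) and Prmt3 (0.37 ± 0.27). The genotypes did not overlap in 5 of the 9 genes (Prmt2, Prmt3, Prmt6, Prmt7 and Clns1a), against 43.5% of all tested genes.

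**Figure D2:**
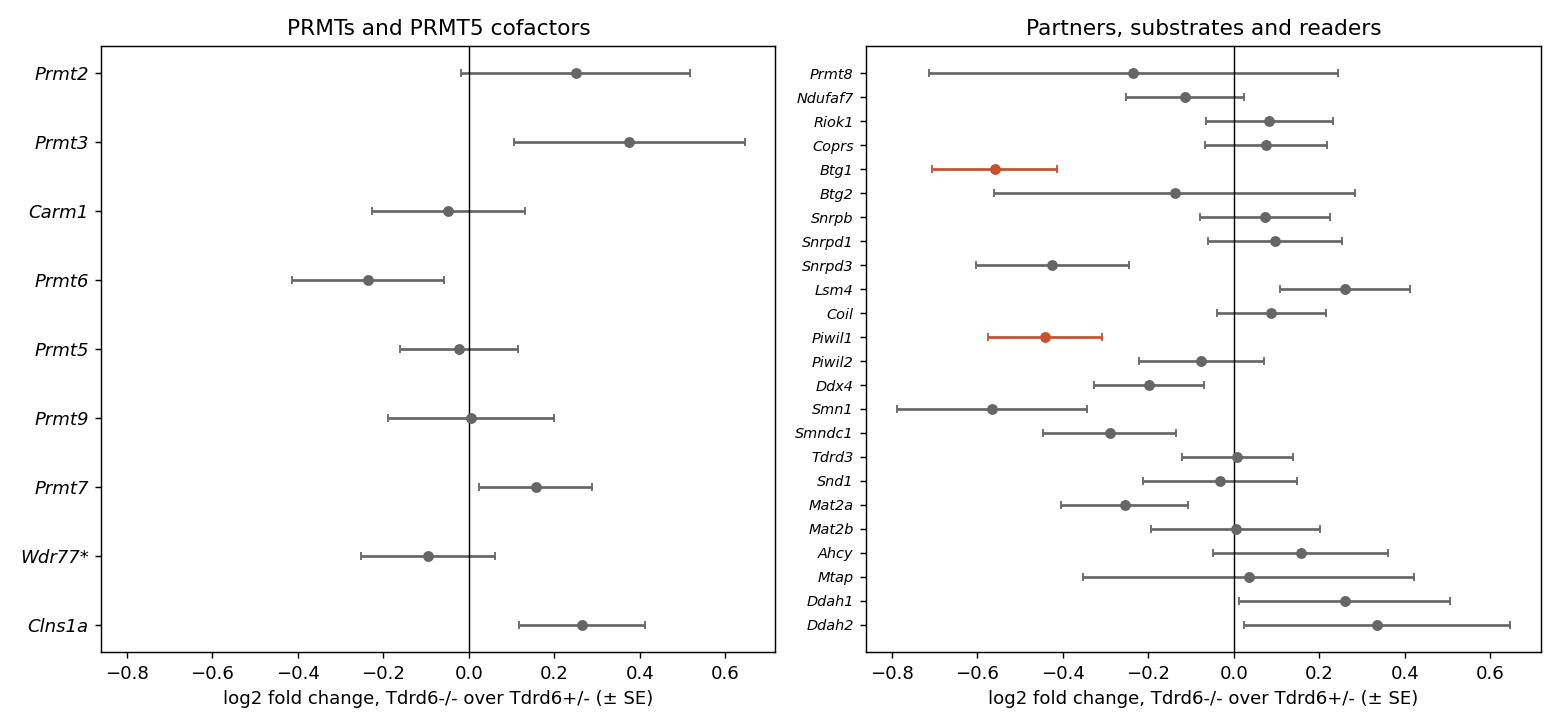
Log2 fold changes of Tdrd6-/- over Tdrd6+/- with their standard errors from edgeR's quasi-likelihood test, for the 9 genes (left) and for 24 partners, substrates, readers and metabolic enzymes (right). Orange points passed a false discovery rate of 0.1. The 9 genes lie between -0.24 and 0.37 with no orange point, and on the right only Btg1 and Piwil1 are orange; Wdr77* is the entry joined with Ovgp1.

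Proteins around the enzymes were described from a list of 24 genes, of which all were tested. The test called 0 of them higher and 2 lower, again against 4.8% of all genes, and the median log2 fold change of the list was -0.01. Btg1, an antiproliferative protein that binds and regulates PRMT1, fell from 63.7 and 77.3 CPM to 47.2 and 48.4 CPM, a log2 change of -0.56 ± 0.15 (edgeR adjusted p = 0.0357). Piwil1, the PIWI protein MIWI of spermatocytes and spermatids and a carrier of dimethylarginine, fell from 1105 and 928 CPM to 732 and 765 CPM, a log2 change of -0.44 ± 0.13 (edgeR adjusted p = 0.0773). Ranges of both genes did not overlap between genotypes, as in 43.5% of all tested genes. Piwil1 is also 1 of the 6 spermatocyte markers, of which Sycp1 was called in the other direction (log2 change 0.60 ± 0.16, edgeR adjusted p = 0.0467). Their sum overlapped between the genotypes and was mostly Hspa2, at 2071 to 2305 CPM.

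The PRMT5 substrates of snRNP assembly were not called. Snrpb (SmB) had 77.1 and 61.7 CPM against 64.3 and 81.6 CPM, a log2 change of 0.07 ± 0.15, and Snrpd1 (SmD1) was at 0.10 ± 0.16. Snrpd3 (SmD3) had 20.4 and 24.3 CPM in Tdrd6+/- and 17.2 and 16.1 in Tdrd6-/-, at -0.42 ± 0.18 (edgeR adjusted p = 0.267). Smn1, which encodes the tudor domain protein that binds methylated Sm proteins, was lower in both Tdrd6-/- samples (7.34 CPM in sample 1) than in both Tdrd6+/- samples (9.24 and 10.5 CPM), at -0.56 ± 0.22 (edgeR adjusted p = 0.22). The genotypes did not overlap in Snrpd3 or Smn1, which was also so in 43.5% of all tested genes. Coprs, an adaptor that takes PRMT5 to histones, was at 47.5 CPM per kb, and Riok1, the adaptor that competes with pICln for PRMT5, was at 4.39 CPM per kb, with log2 changes of 0.08 each. Prmt8, the brain type I enzyme, was low at 0.406 to 0.611 CPM, and Ndufaf7, a mitochondrial arginine methyltransferase that is not related to the family, had 61.9 to 71.4 CPM. Mat2a, which makes S-adenosylmethionine, had 167 CPM in Tdrd6+/- sample 1 and 119 to 122 CPM in the other 3 samples.

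The genes whose 4 levels were most like those of Prmt5, by the Euclidean distance of log2 CPM per kb over the 4 samples among 15635 genes, were Acsl6 (distance 0.09), Sass6 (0.11) and Miip (0.11). For Prmt7 they were Actl6a (0.07), Sec13 (0.10) and Cfl1 (0.10).

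Total RNA also holds unspliced transcripts, and the 9 genes differed widely in how much of their signal was intronic. Prmt5 had 9.83 and 9.26 intron counts per 100 gene counts in Tdrd6+/- and 9.42 and 8.84 in Tdrd6-/-, the least variable of the 9. Prmt7 had 29.1 and 24.8 against 23.6 and 19.2. Prmt3 stood at the other end, with 413 and 543 intron counts per 100 gene counts in Tdrd6+/- and 390 and 242 in Tdrd6-/-. Prmt2 (88.4 to 158) and Carm1 (91.3 to 154) also had more intron than gene counts on average, while Prmt6 with its single short intron had 0.882 to 2.05. The median over 15190 genes was 63.2 with quartiles of 27.3 and 154, so that 5.48% of genes lay below Prmt5 and 89.9% below Prmt3.

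The genes also differ in intron length. Prmt3 has 73.9 kb of intron by M21 and Prmt5 has 6.38 kb. Per kb, introns of Prmt3 were covered at 32.2% of the density of its exons (19.6% to 44.1% over the samples) and those of Prmt5 at 5.79% ± 0.254 (SD, n = 4). Prmt7 was lowest at 4.14% ± 0.698, with 12.9% of 14991 genes below it. For Wdr77 the value was 40.4% ± 6.48, but it sets introns of Wdr77 alone against exons of the joined entry. The exons of Ovgp1 enter that density, so this value cannot be ranked with those of the other genes. The median of all genes was 14.0%. Prmt2 (16.6%), Carm1 (14.9%) and Prmt9 (12.1%) lay near it, and Clns1a (7.85%) and Prmt6 (9.69%) lay under it.

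**Figure D3:**
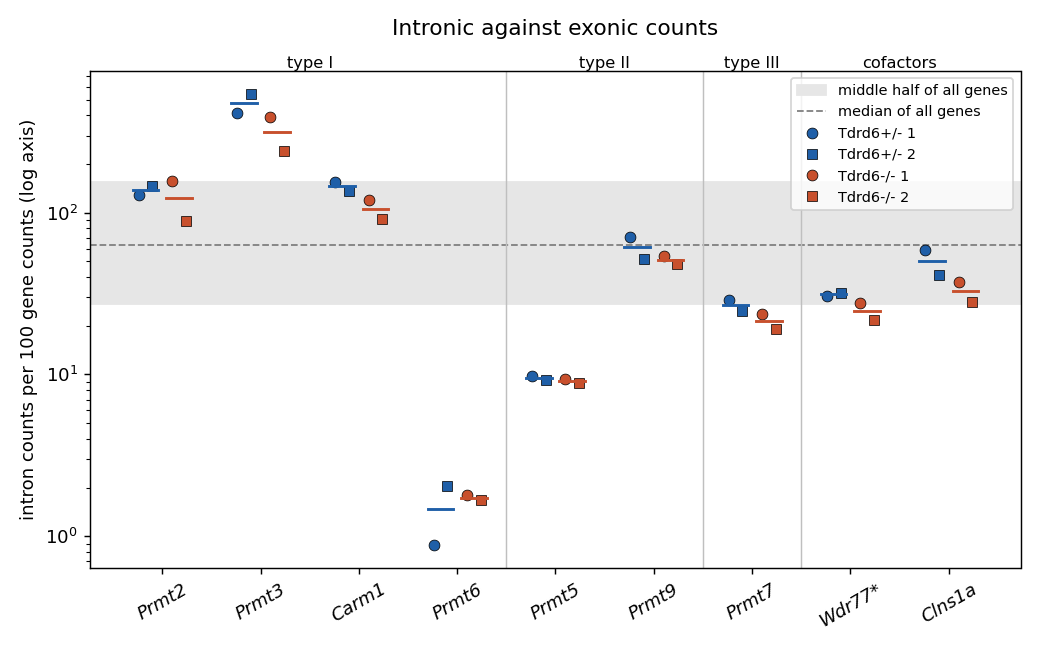
Intron counts per 100 gene counts (log axis) for the 9 genes in each sample, with circles and squares for samples 1 and 2 and bars for genotype means. The dashed line is the median of 15190 genes (63.2) and the grey band runs from their lower to their upper quartile (27.3 to 154). Prmt3 lies above the band and Prmt5 and Prmt6 below it in every sample, and Tdrd6-/- sample 2 is the lowest point for 8 of the 9 genes. The gene counts of Wdr77* include Ovgp1.

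Intronic relative to exonic counts were compared between the genotypes by the interaction in edgeR's quasi-likelihood test, which called 0 of the 9 genes, against 1.88% of 15926 genes. An unadjusted p under 0.05 was found for 0 of the 9, against 1882 of the 15926 genes. The interaction log2 values ran from -0.31 ± 0.16 (SE) for Clns1a, with an edgeR adjusted p of 0.452, to 0.57 ± 0.48 for Prmt6, with 5 genes above and 4 below 0. Clns1a had 58.7 and 41.5 intron counts per 100 gene counts in Tdrd6+/- and 37.4 and 27.9 in Tdrd6-/-. Tdrd6-/- sample 2, the library with the lowest share of intron counts, had the lowest such value for 8 of the 9 genes, all but Prmt6. The test scales intron and gene counts separately, and what that library adds to the difference was not tested.

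Single introns often carried a large share of the intronic counts of a gene. Intron 1 of Carm1 held 534 and 482 counts in Tdrd6+/- and 452 and 358 in Tdrd6-/-, which was 70.3% of the intronic counts of the gene on average. Intron 1 of Clns1a (8719 bp) held 283 and 233 against 256 and 201 counts, or 39.5%. Intron 15 of Prmt3 (19464 bp) held 211 and 167 against 253 and 149 counts, or 38.8%, and intron 9 of Wdr77 held 263 and 176 against 224 and 153, or 38.4%. In the remaining genes the leading intron was intron 13 of Prmt2 (34.4%), intron 1 of Prmt9 (31.9%), intron 12 of Prmt5 (18.4%) and intron 3 of Prmt7 (15.7%). Introns are numbered here along the chromosome, as in the files.

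The usage test asks whether an intron takes a different share of the intronic counts of its gene in Tdrd6-/-. Of the 103 introns of the 9 genes, 91 had at least 10 counts and another intron in the gene to be compared with, which the sole intron of Prmt6 lacks, and only 13 had a mean count (above 77.7) that passed the independent filter and so received an adjusted p. The likelihood ratio test in DESeq2 called 0 of these 13, against 0.417% of 31399 introns. An unadjusted p under 0.05 was found for 5 of the 91, and its share over all introns is not given here. The edgeR usage test also called 0, with 4 under 0.05. Shares did not overlap between genotypes for 34 of the 91 introns, against 38.4% of all introns tested.

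The smallest p belonged to intron 6 of Prmt7 (7205 bp). It held 204 and 164 counts in Tdrd6+/- and 130 and 114 in Tdrd6-/-, or 14.6% and 12.4% against 9.07% and 8.20% of the intronic counts of Prmt7. Both Tdrd6-/- samples were lower, at a log2 change of -0.72 ± 0.24 (SE), with an unadjusted p of 0.00323 and an adjusted p of 0.253 in the DESeq2 likelihood ratio test. The log2 change lay between -0.98 and -0.58 over all alternatives, and the call depended on the setting, as it passed at an adjusted p of 0.0131 with the prior variance that DESeq2 estimates and at 0.0801 with the gene count as reference. The call passed under no other alternative. With the gene count as reference, the test no longer compares the intron with the other introns of Prmt7. It also does not scale intron and gene counts separately, so the share of intron counts in each library enters its result. In Prmt5 the smallest p was that of intron 13, with 8 and 9 counts against 3 and 4 (log2 change -1.47 ± 0.73, unadjusted p = 0.0385 in the DESeq2 likelihood ratio test, no adjusted p). The other introns under 0.05 were intron 10 of Prmt2, intron 5 of Prmt3 and intron 5 of Prmt9, with 17, 28 and 38 counts in all 4 samples together and each higher in Tdrd6-/-.

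For Prmt3, Prmt5, Prmt6, Prmt7 and Clns1a the files hold as many introns and junctions as M21 annotates, so both could be placed by their order, and the counts of an intron could be set beside those of the junctions that remove it. In Prmt5 the median intron had 10.6 intron counts per 100 junction counts, in Prmt7 20.9 and in Clns1a 44.8, while in Prmt3, whose junctions held few counts, the median was 469. An intron is counted over its whole length and a junction at 1 point, so these are not shares of unspliced transcripts.

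The highest mean in Prmt5 was that of a short intron. Intron 12 (128 bp, after exon 5 of transcript Prmt5-201, chr14:54514647-54514774) held 28 and 53 counts in Tdrd6+/- and 52 and 47 in Tdrd6-/-, beside 116 and 163 against 178 and 154 counts of its junction. That made 29.1 ± 3.57 intron counts per 100 junction counts (SD, n = 4), the highest of the 15 introns of the gene, whereas intron 13, 415 bp long, had the lowest value at 2.99 ± 1.74. Intron 11 came next at 23.1 ± 7.68 and was above intron 12 in Tdrd6+/- sample 1 (30.7 against 24.1). The genotypes overlapped at intron 12. Introns of 84, 86 and 95 bp in the same gene had 3.95 to 8.52 intron counts per 100 junction counts, and those of 138 and 196 bp had 15.2 each. Introns 12 and 13 and the comparisons of junctions that follow were picked after their values were seen.

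In Prmt7 intron 9 (3126 bp) held 156 and 132 intron counts in Tdrd6+/- and 156 and 115 in Tdrd6-/-. Its junctions held 113 and 111 counts in Tdrd6+/- and 156 and 184 in Tdrd6-/-. Intron counts were above junction counts in both Tdrd6+/- samples, and equal or lower in Tdrd6-/-. The ratio was 138 and 119 intron counts per 100 junction counts in Tdrd6+/- and 100 and 62.5 in Tdrd6-/-. Both Tdrd6-/- samples were lower (exact permutation p = 0.333, the smallest possible). The genotypes did not overlap for 8 of the 18 introns of Prmt7. No share over all introns is given for this ratio, so whether that count is unusual was not tested. These ratios are not scaled for the share of intron counts in a library, which was lowest in Tdrd6-/- sample 2. The usage test gave intron 9 a log2 change of -0.16 ± 0.26 (DESeq2 likelihood ratio test, unadjusted p = 0.531). Intron 11 (109 bp) had the lowest mean ratio at 2.35 ± 0.652. The antisense gene Gm26786 overlaps introns 9 to 18 of Prmt7 and had a mean gene count of 0.5 per library.

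The sequences across the junctions of these introns are given as 30 bases of the spliced transcript, read from the M21 transcript sequences on the strand of the gene, 5′ to 3′, with the last 15 bases of the upstream exon in lower case and the first 15 bases of the downstream exon in capitals. Those of introns 13 and 12 of Prmt5 come first, as the introns with the fewest and the most counts for their junctions.
Prmt5 intron 13: caccactcttccatgTTCTGGATGAGGGTA
Prmt5 intron 12: gaaaacatggatgtgGTGGCATAACTTTCG

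Each of the well-covered placed genes used 1 set of annotated junctions almost throughout. Where 2 annotated junctions shared a donor or an acceptor site, the minor one made up at most 0.556% of the pair in Prmt5 (5 pairs), 1.24% in Prmt7 (2 pairs) and 0.743% in Clns1a (2 pairs). In Prmt5 the donor of the main first junction carried 66 and 76 counts in Tdrd6+/- and 110 and 106 in Tdrd6-/-, and a donor 79 bp further downstream, which joins the same acceptor, carried 0, 1, 0 and 1. In Prmt7 the donor of exon 8 carried 111 and 110 against 154 and 182 counts, and a donor 555 bp downstream, the end of the first exon of another transcript, carried 2, 1, 2 and 2. In Clns1a the first exon was joined to the second in 65 and 91 against 99 and 146 counts, and to the third exon in 1, 0, 1 and 1. None of the 9 genes had an unannotated junction in the files.
Prmt5 main first junction (intron chr14:54516616-54517246): tgtggccaagcagggGTTTGATTTCCTCTG
Prmt5 minor first junction (intron chr14:54516616-54517167): agtcccctgcaggggGTTTGATTTCCTCTG
Prmt7 main junction (intron chr8:106237403-106241185): ccgcaggagcttcagTGGCGGGACCACTGG
Prmt7 minor junction (intron chr8:106237958-106241185): cttctccagctcaggTGGCGGGACCACTGG
Clns1a first junction (intron chr7:97696870-97705588): ttacatcgcggagagCCGCCTGTCCTGGTT
Clns1a junction past the second exon (intron chr7:97696870-97711699): ttacatcgcggagagAAGAATCAAAAGAAC

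The Prmt5 and Prmt7 pairs share the capitals, that is the acceptor exon, and the Clns1a pair shares the lower-case bases of the donor exon.

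The first junction of Prmt7 held fewer counts than the next one. This was not particular to the first junction, as the junction after exon 8 held 111 and 110 against 154 and 182 counts. The first junction held 113 and 113 counts in Tdrd6+/- and 161 and 204 in Tdrd6-/-. The junction after the second exon held 321 and 368 against 438 and 485 counts, which made a ratio of 35.2% and 30.7% against 36.8% and 42.1%. In Prmt5 the first junction stood at 75.9% and 73.8% of the next one in Tdrd6+/- and 104% and 85.5% in Tdrd6-/-, and in Clns1a at 61.3% and 66.4% against 73.9% and 89.6%. These 3 genes were picked, and the same ratio was not computed over all genes. The usage test called none of these junctions, with a log2 change of 0.41 ± 0.22 for the first junction of Prmt5 (DESeq2 likelihood ratio test, unadjusted p = 0.0639), 0.30 ± 0.18 for that of Prmt7 (unadjusted p = 0.0879) and 0.16 ± 0.25 for that of Clns1a. The coverage of 5′ ends was not compared between the libraries.

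Of the exon segments and junctions of the 7 genes with an entry of their own, 227 had at least 10 counts and 184 received an adjusted p. The DESeq2 likelihood ratio test called 0, against 0.121% of 241677 features, with 2 at an unadjusted p under 0.05, and the edgeR usage test called 0 as well, with 1 under 0.05. The shares under 0.05 over all features are not given here. The 2 features were consecutive segments of Prmt7, numbered 18 (197 bp) and 19 (102 bp). Both lie within the intron that the main junction given above removes (chr8:106237403-106241185), so unspliced transcripts can add to their counts. What the share of intron counts in each library adds to their difference was not tested. Segment 18 held 35 and 30 counts against 26 and 23, or 0.644% ± 0.116 and 0.373% ± 0.0788 of the gene count (SD, n = 2), at a log2 change of -0.80 ± 0.31 (unadjusted p = 0.00891, adjusted p = 0.770 in the DESeq2 likelihood ratio test). Both Tdrd6-/- samples were lower. In Carm1 the smallest p belonged to segment 25, with 13 and 12 counts against 22 and 27 (log2 change 0.81 ± 0.43, unadjusted p = 0.0548 in the DESeq2 likelihood ratio test). Shares did not overlap between genotypes for 75 of the 227, against 34.9% of all features.

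With joined entries kept, 1 segment of the entry of Wdr77 and Ovgp1 passed. Segment 26 held 37 and 36 counts in Tdrd6+/- and 16 and 17 in Tdrd6-/-, or 2.07% ± 0.384 and 0.829% ± 0.0294 of the joined gene count (SD, n = 2), at a log2 change of -1.32 ± 0.35 (adjusted p = 0.0931 in the DESeq2 likelihood ratio test, against 0.118% of 288099 features called). The segment could not be placed on the annotation, so it may belong to either gene, and 2 junctions of the entry had an unadjusted p under 0.05. It is a share of a count that 2 genes make up. In the entry of Prmt2 and Mir678 no segment or junction had an unadjusted p under 0.05.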

How the data were processed

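RNA of hCD4+ cells was sequenced in 2 Tdrd6+/- and 2 Tdrd6-/- samples, each pooled from several mice. The authors aligned the reads with GSNAP to mm10 (GRCm38) and deposited raw counts per gene, exon segment, splice junction and intron, with overlapping genes joined. The submitters' processing notes also name bcl2fastq 1.8.4. Versions of the aligner and counter are not given in the sources used here.

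The counts were used as deposited. Genes and intronic relative to exonic counts were tested with edgeR 4.0.16 (TMM, genotype as the only term) in R 4.3.3, and usage of introns, segments and junctions with a likelihood ratio test in DESeq2 1.42.0 that follows the DEXSeq and JunctionSeq models the authors used, for features with at least 10 counts in total. Both adjust p over all features, at a false discovery rate of 0.1. The usage dispersions were estimated with 10 iterations and a prior variance of 0.5, a setting reached after other settings had been run on the whole series. It was chosen on simulated counts before the usage results of these genes were read, and series-wide intron calls depend on it strongly. The main tests of genes, introns, segments and junctions, and intronic relative to exonic counts were also run on simulated counts. Changes were planted there only in well-covered features, so this check does not bear on features with few counts. The permutation tests, the DESeq2 Wald test and the edgeR usage test were not run on simulated counts. Ratios were compared by exact two-sided permutation tests. Tables and plots were made with Python 3.11.15, pandas 2.3.3 and matplotlib 3.10.9. Positions, exon lengths and sequences come from GENCODE M21 (GRCm38), a different release from the Ensembl annotation the authors used. Features were placed only where numbers of features matched. The division of junctions between Wdr77 and Ovgp1 is an exception, as the numbers did not match and it rests on order alone.

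The genes and lists were chosen with earlier results of these data known. The text names all listed genes, every called feature, the features with the smallest p and the intron with the most counts of each gene, and list members; other junctions and introns were picked after their values were seen. The labels do not say that the 2 samples of a genotype came from separate sorts, so p-values measure only the spread between these samples. Alternatives were another normalisation, another tool, other count minimums, a replicate block and leaving out each sample.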

Additional observations from a re-analysis of the deposited data

How the results depend on the processing

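No gene of the family was called for expression, or for intronic relative to exonic counts, under any alternative run. For introns, 1 was called with the prior variance that DESeq2 estimates and 1 with the gene count as reference, in both cases intron 6 of Prmt7, and 1 segment was called with joined entries kept. Over the whole series, intron calls numbered 131 with the reported dispersion setting, 1418 with the prior variance that DESeq2 estimates and 1 with a single dispersion iteration as well, and segment and junction calls 293, 1576 and 62; these added settings, and the junction-based levels, were chosen after seeing the data. Of 81 alternative fold changes of the 9 genes, 75 kept their direction and 6 reversed, all in genes near 0. Without the filter on low counts Prmt5 was at 0.0027. Leaving out 1 sample at a time, the log2 fold change ranged from -0.092 to 0.012 in Carm1, from -0.14 to 0.12 in Prmt5, from -0.078 to 0.11 in Prmt9 and from -0.32 to 0.19 in Wdr77 with Ovgp1, the reversals coming without either Tdrd6+/- sample or, for Prmt9 (-0.02), without Tdrd6-/- sample 2. In the genes that kept their direction it ranged from 0.10 to 0.42 in Prmt2 and from 0.061 to 0.78 in Prmt3 (low without Tdrd6+/- sample 2, high without sample 1), from -0.38 to -0.064 in Prmt6 (without Tdrd6+/- samples 2 and 1), from 0.040 to 0.27 in Prmt7 (without Tdrd6-/- samples 2 and 1) and from 0.17 to 0.36 in Clns1a (without Tdrd6-/- samples 2 and 1).

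Ratios of levels depended on the length used. Prmt7 over the type II enzymes was 1.59 with the longest transcript, 1.965 without length correction and 2.30 by junctions. By junctions type I over type II was 0.303, Wdr77 over Prmt5 0.451, Clns1a over Prmt5 1.08 and Prmt5 over Prmt9 10.96, and without length correction Wdr77 over Prmt5 was 0.743 and Prmt5 over Prmt9 6.72.

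Equally numbered samples are not stated to be paired, and their deviations correlated at -0.117 over 12347 genes. With the replicate block 0 genes of the family were called in each test, and the calls over the whole series were 1046 genes, 431 introns and 5239 segments and junctions. With the pairing crossed they were 1175, 39 and 5188. With 2 samples per genotype, low counts in Prmt2, Prmt3 and most single introns limit what could be detected.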
